A study of Mus musculus with 4 samples.

Results

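Milk-gene-high luminal progenitors were examined in single-cell RNA libraries of mouse mammary epithelium. They were chosen on measured values. Among the 18223 deposited cells, those with at least 1000 UMIs (unique molecular identifiers, each standing for 1 captured mRNA molecule) were classed from raw UMI sums. A cell was taken as a luminal progenitor when it held at least 5 UMIs of the luminal keratins Krt8, Krt18 and Krt19, more than 3 times its sum of Krt5, Krt14, Krt17 and Acta2, and at least 3 UMIs of Wfdc18, Csn3 and Ltf, with the last sum above that of Ly6d, Fxyd2 and Gpx3. This gave 4382 luminal progenitors. They were ranked by their milk score, the UMIs of Lalba, Csn1s2a, Csn2, Btn1a1 and S100g per 10000 UMIs of the cell, and the top 10% over all libraries were taken as members. There were 438 members and 3944 other progenitors.

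The study asked what conditional loss of Tfap2c, the gene of the transcription factor AP-2γ, does to mammary stem cells. All 4 mice were FVB, carried 2 floxed Tfap2c alleles and expressed Krt5-CreERT2, so that Cre is made where the Krt5 promoter is active, mainly the basal layer. The corn oil group (2 mice) received the vehicle and the 4OHT group (2 mice) received 4-hydroxytamoxifen, which lets the Cre enter the nucleus. Injections began at week 4 of age, and the fourth mammary glands were taken at week 9. Each mouse gave 1 library of 3546 to 5545 cells and 17351950 to 22017878 UMIs, and p-values measure the spread between these libraries.

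Luminal progenitors line the mammary ducts and give rise to the secretory alveolar cells of pregnancy. In that change prolactin acts through its receptor on the kinase JAK2 and the transcription factor STAT5, and with ELF5 it turns on the genes of the milk proteins. Virgin glands do not secrete milk, but some of their luminal progenitors carry RNA of milk proteins. Of the genes in the score, Csn2 and Csn1s2a encode caseins, Lalba encodes α-lactalbumin, the regulatory subunit of lactose synthase, Btn1a1 encodes butyrophilin of the milk fat globule membrane, and S100g encodes the calcium-binding protein calbindin-D9k.

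Tfap2c (chr2:172549593-172558622, GRCm38), the gene that the Cre should delete, is described before the other genes. Levels are given as CPM, the UMIs of a gene per 1e6 UMIs of all cells in a class. In the basal cells, where the Cre is made, corn oil gave 389 and 285 CPM of Tfap2c and 4OHT gave 285 and 325 CPM. In the members it stood at 49.0 and 33.5 CPM in corn oil and at 59.5 and 35.9 CPM in 4OHT. The groups overlapped in both classes. No fall of Tfap2c was seen under the label 4OHT, so every direction given for these libraries rests on the labels alone. A 3′ count may also lie outside a deleted exon, and the labels do not say which exons are floxed.

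The label of the cells was then set against their markers. The rule itself used the progenitor, basal and 3 hormone-sensing genes (Ly6d, Fxyd2, Gpx3), so their sums describe the choice and are no check of it. The members held a median of 164 UMIs per 10000 of the progenitor genes Wfdc18, Csn3 and Ltf, and the other progenitors 52.9. The median sums of the rule's hormone-sensing genes and of 5 endothelial genes were 0 in the members, and that of the basal genes was 1.33 per 10000, against 1.70 in the other progenitors. Longer marker lists were then summed. Summed markers of basal cells ran from 129 to 207 CPM over the 4 libraries in the members, from 257 to 484 CPM in the other progenitors and from 7922 to 10554 CPM in the basal cells. A list of 12 hormone-sensing markers outside the rule summed to 129, 481, 405 and 281 CPM in the members, in the order corn oil replicates 1 and 2 and 4OHT replicates 1 and 2, against 685, 265, 342 and 276 CPM in the other progenitors. It was higher in the members of 3 of the 4 libraries. Most of it was Ly6a, at 104, 453, 374 and 193 CPM in the members, while Foxa1, Tnfsf11 and Calca were at 0. In the hormone-sensing luminal cells the list summed to 1917 to 3495 CPM. Its part in the results was not tested. Summed leukocyte markers ran from 0 to 1.46 CPM in the members, and 6 of the 8 were at 0, Ptprc among them. Fibroblast markers ran from 1.20 to 5.66 CPM. Scrublet's automatic threshold marked at most 0.499% of the cells of any library, so doublets were not removed. Of the cells with the highest doublet scores, which were left out in an alternative, 5 were members (1.14%) and 142 were other progenitors (3.60%). Across libraries 155 barcodes were shared, and 6 members carried one of them. No barcode was a member in more than 1 library.

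The score is a range with no gap at the threshold. The lowest member stood at 10.4 milk UMIs per 10000 and the highest other progenitor at 10.3. Scores up to 10% above that of the lowest member were held by 27 members, and scores up to 10% below it by 31 other progenitors. No milk UMI was found in 2720 progenitors (62.1%), while the median member had 26.5 milk UMIs per 10000 and the highest had 985. In raw counts a member held from 2 to 1230 milk UMIs with a median of 13. At most 5 were held by 68 members and at least 100 by 35 members. The members carried 18577 of the 20963 milk UMIs of all progenitors (88.6%), and the 44 highest cells alone carried 51.7%. A small number of cells therefore sets the summed level of these genes.

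Members were found in every library. They were 128 of 1045 progenitors in corn oil replicate 1 (12.2%, exact Clopper-Pearson 95% interval 10.3% to 14.4%) and 122 of 934 in corn oil replicate 2 (13.1%, 11.0% to 15.4%). They were 70 of 1236 in 4OHT replicate 1 (5.66%, 4.44% to 7.10%) and 118 of 1167 in 4OHT replicate 2 (10.1%, 8.44% to 12.0%). These intervals cover counting error only. The share was 12.7% ± 0.575 (SD, n = 2) in corn oil and 7.89% ± 3.15 (SD, n = 2) in the 4OHT-labelled libraries. Both 4OHT-labelled libraries lay below both corn oil libraries, but they differed from each other by almost as much as the groups did. The difference of -4.77 percentage points had p = 0.333 in a two-sided exact permutation test, the smallest value that 2 libraries against 2 can give. Without 4OHT replicate 1 it was -2.54 points. Median UMIs per member were 6065, 5321.5, 4683 and 3835 in the order above, against 5534, 4894, 4621.5 and 3572 in the other progenitors. Members were also chosen after progenitors with at least 2000 UMIs were thinned to 2000 UMIs. This left out 216 shallower progenitors, 26 of them members, and the difference was then -5.00 points.

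**Figure D1:**
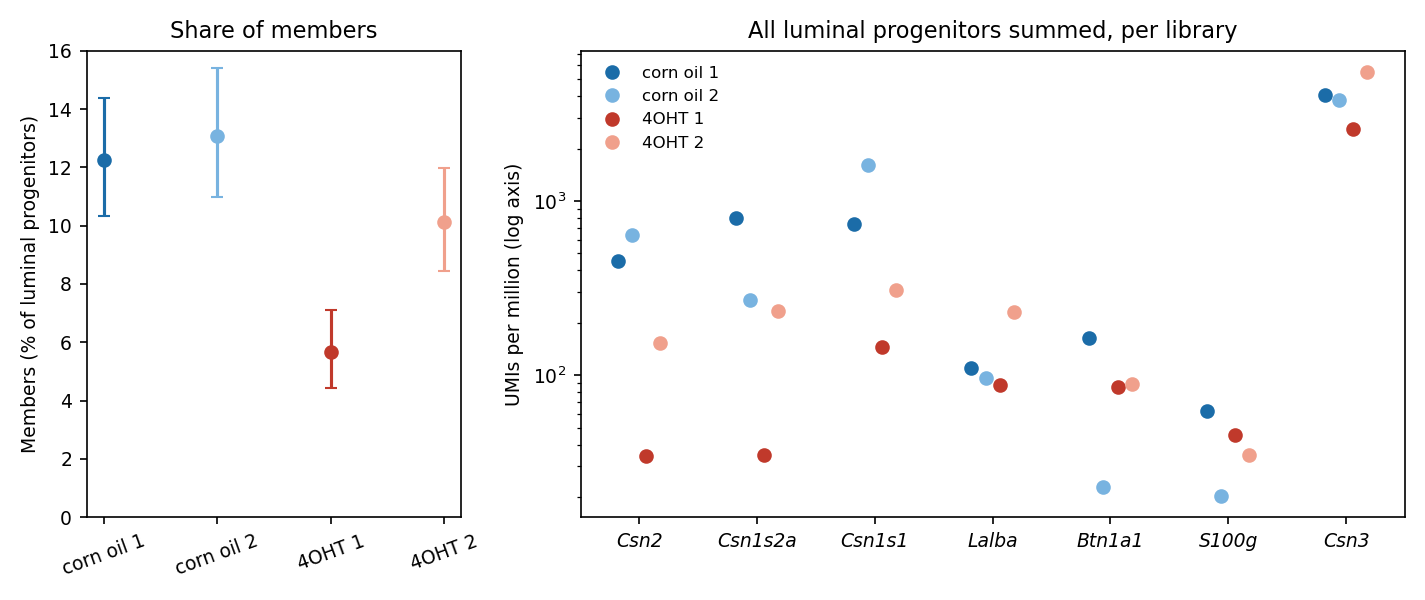
Left, members as a percentage of luminal progenitors in each library, with exact 95% binomial intervals. Right, milk genes in all luminal progenitors of a library summed, in CPM on a log axis, 1 point per library. The share runs from 5.66% to 13.1%, and Csn2 and Csn1s1 are lower in both 4OHT-labelled libraries while Btn1a1 and S100g are lowest in corn oil replicate 2.

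The 5 genes of the score did not mark the same cells. They were used by the rule, so these values describe the members and test nothing. Lalba was present in 248 members, Btn1a1 in 264, Csn1s2a in 194, Csn2 in 193 and S100g in 41. Csn1s2a and Csn2 were present together in 144 members, which is 74.2% of those with Csn1s2a and 74.6% of those with Csn2. Lalba and Btn1a1 were together in 176 members, 71.0% of those with Lalba and 66.7% of those with Btn1a1. S100g stood apart from the caseins: 1 member held S100g with Csn2 (2.44% of the S100g members) and 3 held it with Csn1s2a (7.32%). A single score gene had a UMI in 109 members (24.9%), and all 5 were present in 1.

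The gene with the most UMIs in a member differed by library. It was Csn2 in 125 members, Lalba in 117, Csn1s2a in 89, Btn1a1 in 61 and S100g in 33, with ties in 13. In corn oil replicate 1 the most frequent was Csn1s2a, in 44 of 128 members (34.4%). In corn oil replicate 2 it was Csn2, in 87 of 122 (71.3%), and no member there was led by Btn1a1. In 4OHT replicate 1 Lalba led 24 of 70 members (34.3%) and Btn1a1 led 21 (30.0%). In 4OHT replicate 2 Lalba led 63 of 118 (53.4%). Csn2 led 9.32% to 14.8% of the members of the 3 libraries other than corn oil replicate 2. The 2 corn oil libraries thus differed from each other in their leading casein.

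**Figure D2:**
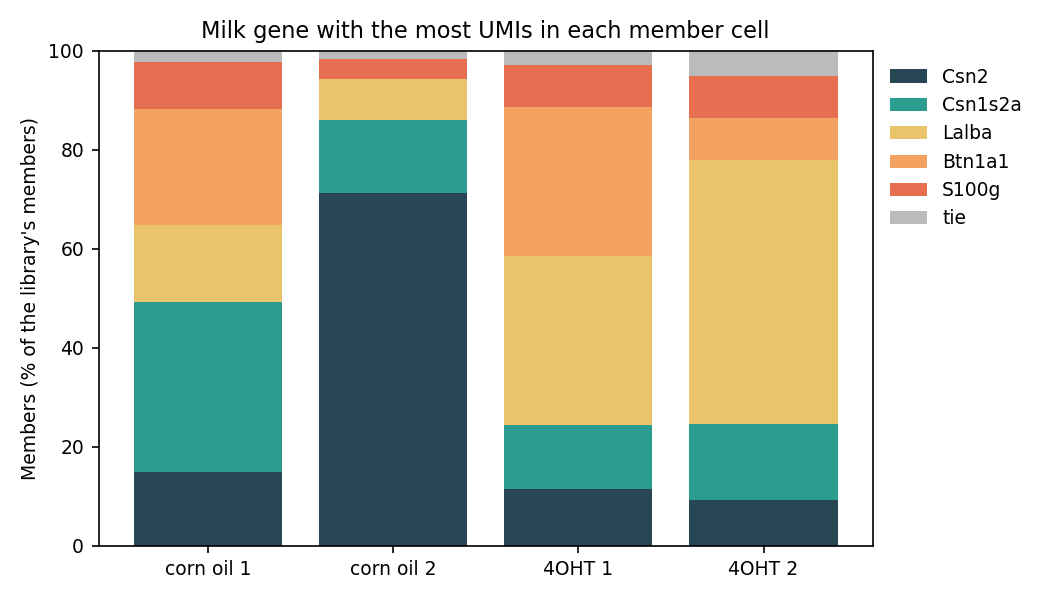
Bars show, for each library, the percentage of its members whose most frequent milk transcript was the gene named by the colour, with ties in grey. Csn2 fills 71.3% of corn oil replicate 2, and Lalba fills 53.4% of 4OHT replicate 2.

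In the summed counts of the members Csn2 (chr5:87692624-87699630) reached 3316 and 4494 CPM in corn oil but 558 and 1516 CPM under 4OHT. In the other progenitors it stood between 3.38 and 51.9 CPM, the highest value being that of corn oil replicate 2. Csn1s2a (chr5:87774567-87788797) stood at 5771, 1825, 535 and 2349 CPM in the members, in the order corn oil replicates 1 and 2 and 4OHT replicates 1 and 2, and the libraries differed widely. Lalba (chr15:98480400-98482721) stood at 695, 592, 1263 and 2082 CPM, and here the 4OHT-labelled libraries were the higher ones. Btn1a1 (chr13:23456992-23465901) stood at 667, 42.3, 600 and 405 CPM. S100g (chrX:162961992-162964599) stood at 415, 124, 694 and 325 CPM. Corn oil replicate 2 was the lowest library for Lalba, Btn1a1 and S100g and the highest for Csn2. Gene positions were taken from GENCODE M21 (GRCm38).

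Outside the progenitors these genes were low. The milk score of summed cells was 36.5 to 109 UMIs per 10000 in the members, 0.883 to 1.35 in the other progenitors, 0.0387 to 0.199 in the basal cells and 0.0322 to 0.108 in the hormone-sensing luminal cells. The highest single basal cell reached 57.2. After thinning to 2000 UMIs, Lalba had a UMI in 44.4% of 412 members, 4.48% of 3754 other progenitors and 0.316% of 6321 basal cells, with 26, 190 and 707 shallower cells left out. Unthinned cells gave 56.6%, 8.39% and 0.470%. Their median depths were 4926, 4685 and 3456.5 UMIs. Btn1a1 was the score gene most often seen below the threshold, in 9.75% of the thinned other progenitors against 0.221% of the basal cells.

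Csn2 and Csn1s1, another casein gene that the rule did not use (chr5:87666208-87682578), lie near each other on chromosome 5. Their promoters are shown because both are casein genes that stood high in the members and because each holds, in the 250 bases before its start, a match to TTCNNNGAA, the palindrome that STAT5 is known to bind. The promoter of Lalba is shown as a score gene with no match. Sequences are from RefSeq on GRCm38.p6, 5′ to 3′ in the direction of the gene, with the match in capitals. They cover chr5:87699426-87699675 on the minus strand, chr5:87665958-87666207 on the plus strand and chr15:98482684-98482933 on the minus strand. Starts here are those of RefSeq. For Csn2 and Lalba they lie inside the GENCODE spans given above, so part of each window overlaps the span.
Csn2: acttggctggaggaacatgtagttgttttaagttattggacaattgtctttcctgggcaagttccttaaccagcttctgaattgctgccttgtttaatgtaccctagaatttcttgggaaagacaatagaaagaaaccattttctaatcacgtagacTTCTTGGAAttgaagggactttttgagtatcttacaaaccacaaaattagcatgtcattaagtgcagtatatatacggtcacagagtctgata
Csn1s1: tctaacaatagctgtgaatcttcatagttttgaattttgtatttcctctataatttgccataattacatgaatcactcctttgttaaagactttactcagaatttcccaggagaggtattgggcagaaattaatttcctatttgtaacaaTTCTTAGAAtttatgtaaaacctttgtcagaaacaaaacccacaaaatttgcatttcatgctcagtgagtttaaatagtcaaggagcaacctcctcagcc
Lalba: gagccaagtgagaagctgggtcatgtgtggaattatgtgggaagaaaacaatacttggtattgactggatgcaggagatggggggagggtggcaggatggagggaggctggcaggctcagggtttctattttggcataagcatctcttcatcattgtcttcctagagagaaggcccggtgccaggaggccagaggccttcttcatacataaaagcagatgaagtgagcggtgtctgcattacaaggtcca
The match of Csn2 begins 93 bases before its RefSeq start and that of Csn1s1 begins 100 bases before its own. The motif reads the same on both strands. Of 19 milk protein genes looked up (the score genes and the list of other milk proteins), 15 had a promoter entry. Csn2, Csn1s1 and Glycam1 held a match and the remaining 12 did not. Csn1s2a, the other casein gene of the score, and Wap were among those without a match. Of all 32851 promoter windows of this length, 7.02% held a match. A match describes the letters of the window, and its absence says only that they are not in it.

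The members were compared with the other progenitors of the same library to see which genes outside the rule went with the milk score. Counts were summed per library and class and tested with edgeR's quasi-likelihood test with library as a block. Of 8194 genes tested, 523 were higher in the members (6.38%) and 405 were lower (4.94%) at a Benjamini-Hochberg adjusted p under 0.05. These counts include 9 genes used by the rule, which are not read as results. Every library mattered to the count, which was 514 without corn oil replicate 1, 1395 without corn oil replicate 2, 337 without 4OHT replicate 1 and 276 without 4OHT replicate 2. When members were chosen on a random 50% of each cell's UMIs and tested on the rest, 309 of 6413 genes tested were higher and 241 lower. The median log2 fold change of all genes was -0.01.

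Most of the other milk protein genes tested were higher in the members. Of the 14 on the list 11 were tested, 9 were higher, Slpi was lower and Wap did not pass, and the median log2 fold change was 1.76. Csn1s1 stood at 3785, 6039, 1172 and 1215 CPM in the members of the 4 libraries and at 266, 940, 83.4 and 215 CPM in the other progenitors. It was higher in the members of every library, and within each class the corn oil libraries were above the 4OHT-labelled ones. The log2 fold change was 3.24 ± 0.25 (SE) with an edgeR adjusted p of 1.16e-06. In basal cells Csn1s1 stood between 2.02 and 28.1 CPM. After thinning it had a UMI in 55.8% of members, 16.1% of other progenitors and 1.95% of basal cells, and without thinning in 58.0%, 21.3% and 3.17%.

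Lao1 (chr4:118961578-118968912), an amino acid oxidase secreted into mouse milk, showed the highest fold among genes outside the rule. It stood at 153, 32.1, 39.6 and 120 CPM in the members and at 1.18 to 5.44 CPM in the other progenitors (log2 fold change 4.76 ± 0.32, edgeR adjusted p = 1.74e-07). The classes were far apart in every library. Trf, the iron carrier transferrin, stood at 9342, 4488, 6580 and 7471 CPM in the members against 2819, 1843, 2106 and 2293 CPM (log2 fold change 1.63 ± 0.17, edgeR adjusted p = 3.06e-05). Mfge8, a protein of the milk fat globule, stood at 3050, 1124, 3808 and 3807 CPM against 981, 709, 803 and 787 CPM (1.76 ± 0.23, edgeR adjusted p = 2.36e-04). For both, corn oil replicate 2 had the lowest member level and the smallest gap between classes. Spp1 (osteopontin), Muc15, Muc1, Pigr (the receptor that carries immunoglobulin into milk) and Cel (the bile salt-stimulated lipase of milk) also rose, with log2 fold changes from 0.88 to 2.32. Pigr rested on 7, 13, 5 and 2 UMIs in the members. Slpi, a secreted protease inhibitor, fell by 1.10 on the log2 scale. Wap, the whey acidic protein, was rare at 0 to 21.9 CPM in the members and had a log2 fold change of 1.80 ± 0.58 (edgeR adjusted p = 0.057).

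**Figure D3:**
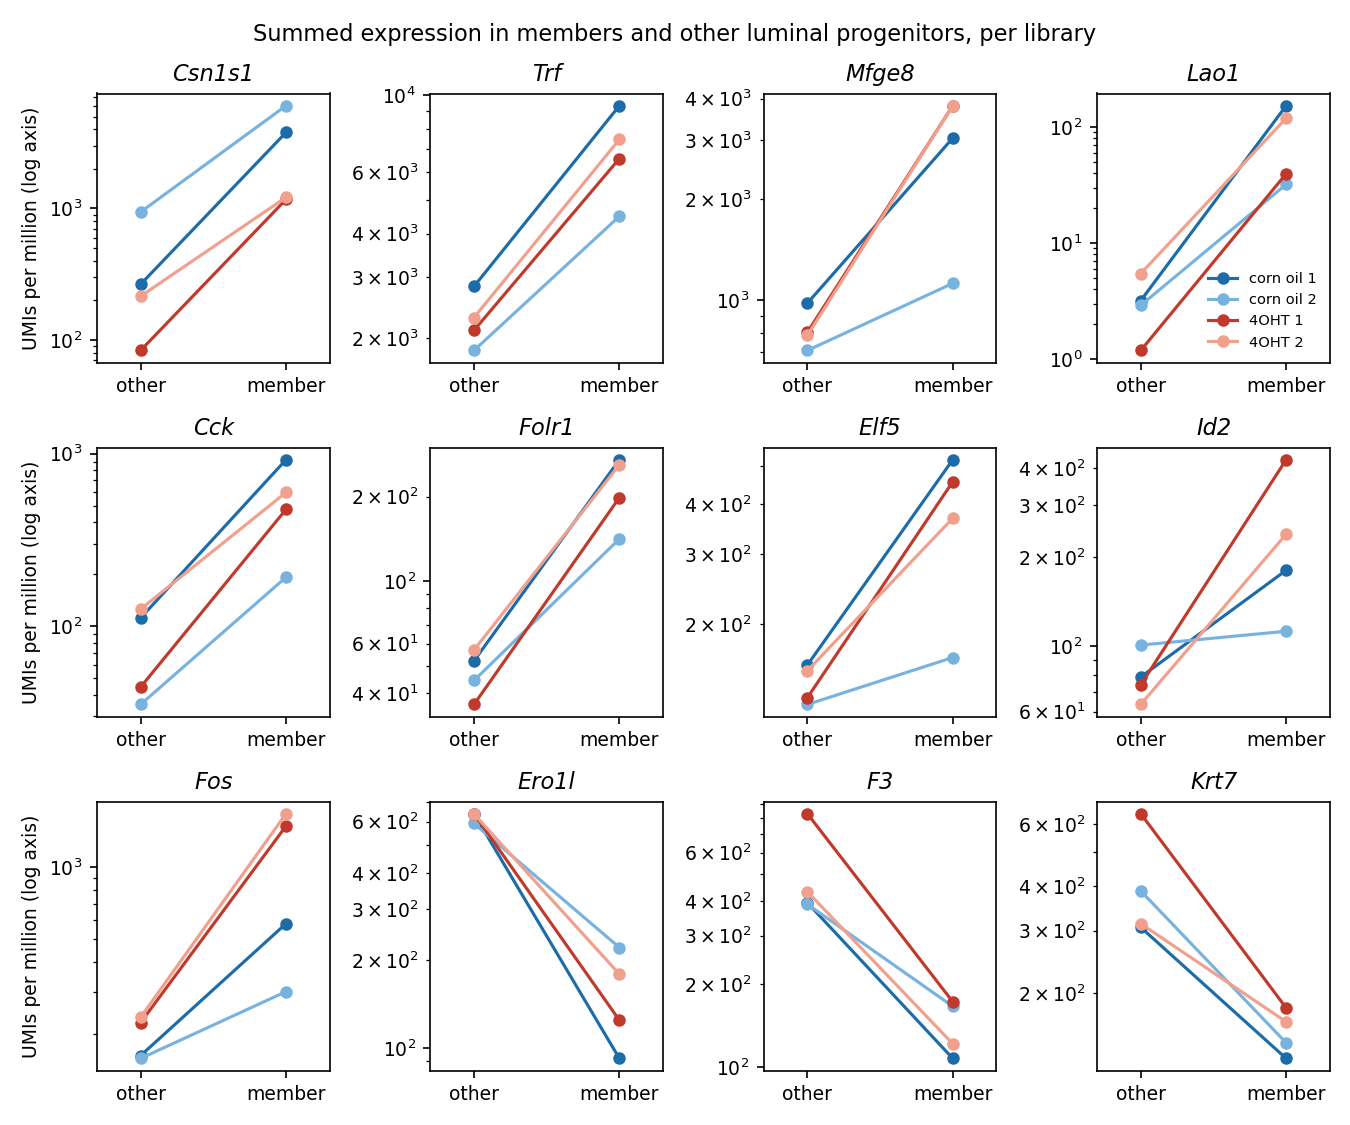
Summed expression of 12 genes outside the rule in other progenitors (left of each panel) and members (right), in CPM on a log axis, 1 line per library. All lines rise for Csn1s1, Trf, Mfge8, Lao1, Cck, Folr1, Elf5, Id2 and Fos and fall for Ero1l, F3 and Krt7, and corn oil replicate 2 has the flattest line for Mfge8, Elf5 and Id2.

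The enzymes of milk fat, lactose and transport moved less. Of 24 milk lipid genes 18 were tested, 3 were higher and none was lower, with a median of 0.64. Xdh, which binds butyrophilin at the surface of the milk fat droplet, stood at 81.3, 46.6, 116 and 93.7 CPM in the members against 45.0, 25.0, 33.1 and 28.1 CPM (log2 fold change 1.36 ± 0.19, edgeR adjusted p = 3.82e-04). Aldoc and the lipoprotein lipase Lpl also passed, with log2 fold changes of 1.64 and 1.54. Lpl rested on 4, 10, 6 and 4 UMIs in the members. Plin2, which coats lipid droplets, was at 645 to 714 CPM in the members and did not pass (0.37 ± 0.14). All 10 genes of the lactose list were tested, and 1 rose and 2 fell, with a median of -0.16. The glucose transporter Slc2a1 fell by 1.07 and the hexokinase Hk2 fell by 1.27 on the log2 scale. Galt rose by 0.91 at the edge of the threshold (edgeR adjusted p = 0.0493) and did not pass in 14 of 16 alternatives. B4galt1, the catalytic subunit of lactose synthase, did not pass (0.35 ± 0.21). Of 13 ion transport genes 6 were tested, 1 rose (Orai1, a calcium channel, by 1.14) and the median was -0.07. Of 8 amino acid transporters 4 were tested, none passed in edgeR at an adjusted p under 0.05 and the median was -0.47. At an unadjusted p under 0.05 the count was 4, against 2202 of all 8194 genes tested, and in DESeq2 0 passed. All 4 were lower in the members of every library, as were 1559 of all genes tested.

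Among 20 regulators of the prolactin pathway and of alveolar fate 19 were tested, 2 rose and 2 fell, with a median of 0.04. Elf5, the transcription factor of alveolar cells, stood at 518, 165, 456 and 369 CPM in the members and at 158, 126, 131 and 153 CPM in the other progenitors (log2 fold change 1.36 ± 0.21, edgeR adjusted p = 9.51e-04). Id2, an inhibitor of basic helix-loop-helix factors, stood at 181, 112, 428 and 239 CPM against 78.6, 101, 74.0 and 63.4 CPM (1.52 ± 0.27, edgeR adjusted p = 2.25e-03). In corn oil replicate 2 the classes were close for both genes. The prolactin receptor Prlr (log2 fold change 0.02 ± 0.28), Stat5a (0.51 ± 0.34), Stat5b (-0.48 ± 0.53) and Jak2 (-0.26 ± 0.40) did not pass. Socs2, a suppressor of cytokine signalling that STAT5 induces, fell by 1.10, and Nr3c1, the glucocorticoid receptor, fell by 0.86, but neither passed in all alternatives. Tfap2c had a log2 fold change of -0.01 ± 0.18 between members and other progenitors.

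Markers of luminal progenitors went in both directions. All 14 were tested, 3 rose and 5 fell, with a median of 0.21. F3, tissue factor, stood at 108, 166, 173 and 122 CPM in the members and at 395, 390, 829 and 432 CPM in the other progenitors (log2 fold change -1.75 ± 0.17, edgeR adjusted p = 1.49e-05). The classes did not overlap. Krt7 fell by 1.31, the integrin Itga2 by 1.64, the aldehyde dehydrogenase Aldh1a3 by 0.91 and the claudin Cldn1 by 0.60. Lbp, Tspan8 and Sox10 rose by 0.68 to 0.86. In corn oil replicate 1 Tspan8 was not higher in the members, at 184 CPM against 197 CPM in all progenitors of that library. Kit, the receptor often used to sort these cells, did not pass (0.34 ± 0.32). Of the rule's own progenitor genes Csn3, the κ-casein, stood at 9266, 8680, 9299 and 14443 CPM in the members against 3257, 3040, 2173 and 4564 CPM, and Krt18 stood at 8023, 6922, 7110 and 6557 CPM against 10522, 8820, 16784 and 12303 CPM. These 2 are given without a test because they helped to choose the cells.

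Most of the immediate early and heat-shock genes, which respond to growth signals and also to tissue dissociation, were higher in the members. All 18 were tested, 13 rose and 1 fell, with a median of 0.84. In all 4 libraries 11 were higher in the members and 1 was lower. Of all 8194 genes tested, 1113 were higher in the members of all 4 libraries and 1559 were lower. Fos stood at 579, 300, 1484 and 1671 CPM in the members and at 162, 158, 223 and 235 CPM in the other progenitors (log2 fold change 2.15 ± 0.25, edgeR adjusted p = 6.98e-05). Both 4OHT-labelled libraries had the higher Fos in the members. Egr1, Nr4a1, Btg2 and Jund rose by 1.02 to 1.24, and the anti-apoptotic gene Ier3 fell by 1.00. The heat-shock gene Hspa1a stood at 5128, 1258, 7013 and 4124 CPM in the members and at 3248, 1329.5, 2149.8 and 1599 CPM in the other progenitors (log2 fold change 0.96 ± 0.23, edgeR adjusted p = 0.0168). It was not higher in the members of corn oil replicate 2, nor was Hspa1b (143 against 150.1 CPM). Hspa8 did not pass (0.49 ± 0.19). Hspa1a and Hspa1b are near-identical copies whose reads the authors' counting could have split. The part of dissociation in the other differences was not tested.

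**Figure D4:**
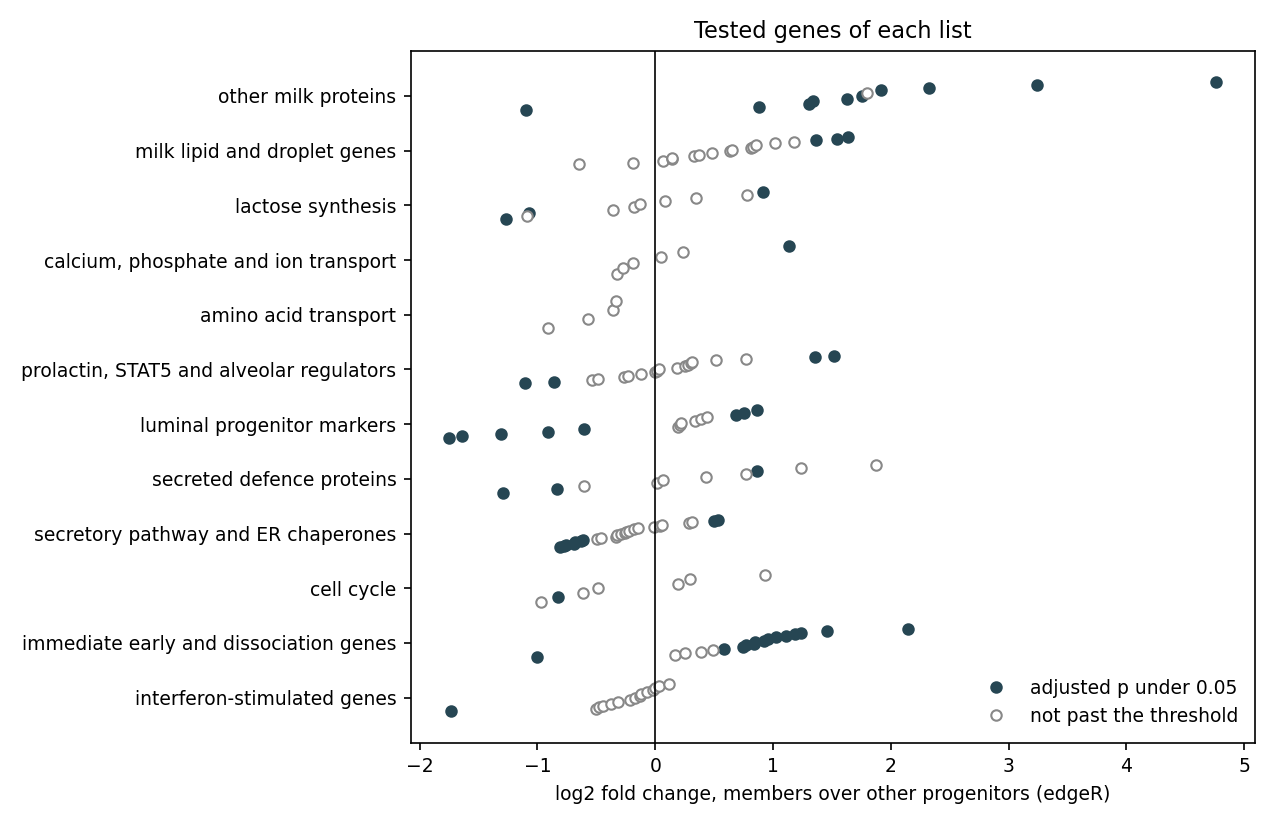
Each point is a tested gene of a list, placed by its edgeR log2 fold change of members over other progenitors. Filled points passed an adjusted p of 0.05 and open points did not. Most milk protein and immediate early genes lie to the right of 0, while chaperones and progenitor markers lie on both sides.

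Among genes of the secretory pathway and its chaperones more fell than rose. All 24 genes were tested, 2 rose and 7 fell, with a median of -0.28. Pdia6, a disulfide isomerase, stood at 181, 264, 221 and 225 CPM in the members against 390, 368, 419 and 382 CPM (log2 fold change -0.78 ± 0.14, edgeR adjusted p = 2.70e-03). Sdf2l1, Dnajb9, Manf, Sec61a1, Pdia4 and Hsp90b1 fell by 0.61 to 0.81, while the translocon subunit Ssr4 rose by 0.53 and Srp14 of the signal recognition particle rose by 0.50. Hspa5, the main chaperone of the endoplasmic reticulum, did not pass (-0.26 ± 0.18). Secreted defence proteins had 10 of 18 genes tested, and 1 rose (Lbp) and 2 fell (Cxcl1 and Cxcl2), with a median of 0.25. Lcn2 did not pass, at 5832 to 8073 CPM in the members and 4328 to 6803 CPM in the other progenitors. Of 20 cell cycle genes 7 were tested and only Tubb5, a tubulin, passed and fell by 0.82. Mki67 and Top2a were too low to test. Among 15 interferon-stimulated genes 1 passed, Ifi27l2a, which fell by 1.73. It rested on 8, 10, 0 and 2 UMIs in the members, and in corn oil replicate 2 the members (14.6 CPM) were not below the other progenitors (12.9 CPM). Of the markers of other cell types, 5 hormone-sensing genes were tested and none passed in edgeR (1 had an unadjusted p under 0.05, and DESeq2 called 0), 9 basal genes were tested and Tpm2 fell by 1.18, Pecam1 of the endothelial markers did not pass (-0.24 ± 0.24) and Dcn of the fibroblast markers fell by 2.77. The fall of Dcn rested on 1, 0, 1 and 0 UMIs in the members. No leukocyte, red cell or adipocyte marker reached the test.

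Beyond the lists, the genes with the highest folds that were higher in every library included the peptide hormone gene Cck. It stood at 923, 192, 476 and 596 CPM in the members and at 112, 35.2, 44.4 and 126 CPM in the other progenitors (log2 fold change 2.84 ± 0.20, edgeR adjusted p = 3.50e-07). The level in the members was 4.75 to 10.7 times that in the other progenitors of the same library. G0s2, an inhibitor of the main triglyceride lipase, rose by 3.11, Pkib, an inhibitor of protein kinase A, by 3.73, and the carbonyl reductase Cbr2 by 2.65. Folr1, the folate receptor whose soluble form binds folate in milk, stood at 270, 141, 198 and 259 CPM against 52.1, 44.4, 36.5 and 56.9 CPM (2.21 ± 0.18, edgeR adjusted p = 1.22e-06). The secreted glycoprotein Lrg1, the adhesion molecule Ceacam10, the sialyltransferase St6galnac6 and the transcripts BC016548 and E030013I19Rik rose by 2.04 to 2.34.

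The genes with the lowest folds in the members were led by Ccl5, a chemokine. The members held 1, 1, 0 and 0 UMIs of it and the other progenitors 626, 669, 476 and 542. The level in the other progenitors was 134 times that in the members (95% counting interval 37.0 to 1107). This interval treats UMIs as independent counts and leaves out the spread between cells and between libraries. Ccl5 was carried by a minority of cells, 152 of the 3944 other progenitors (3.85%) against 2 of the 438 members (0.457%), with up to 232 UMIs in 1 cell. In basal cells 1.89% had a UMI. With the top 20% of progenitors taken as members its log2 fold change was -1.86 in place of -7.04. Ero1l, the oxidase that drives disulfide formation in the endoplasmic reticulum, stood at 92.1, 222, 125 and 179 CPM in the members and at 592 to 639 CPM in the other progenitors (-2.04 ± 0.18, edgeR adjusted p = 4.82e-06). The classes were far apart and the other progenitors of the 4 libraries were nearly level. Ptgs2, which makes prostaglandin precursors, fell by 3.16, the cytokine gene Csf3 by 3.18, Fgfbp1 by 3.46 and S100a14 by 2.41. These folds rest on few counts. The members of the 4 libraries held 3, 4, 8 and 4 UMIs of Ptgs2 and 2, 9, 2 and 3 of Csf3. They held 1, 1, 2 and 0 UMIs of Fgfbp1 and 5, 11, 6 and 0 of S100a14. The other progenitors held 63, 95, 307 and 25 UMIs of Fgfbp1, most of them in 4OHT replicate 1. The mitochondrial folate enzyme Mthfd2 fell by 1.89. Hmox1, haem oxygenase, stood at 72.9, 1421, 116 and 363 CPM in the members against 1216, 1773, 1392 and 723 CPM (-2.05 ± 0.44, edgeR adjusted p = 8.29e-03). Its members in corn oil replicate 2 were almost as high as the other progenitors of that library. Prrg4 and the histone demethylase Kdm3a fell by 1.93 and 1.92. The members held 1, 10, 2 and 2 UMIs of Prrg4 and 6, 3, 1 and 5 of Kdm3a.

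The differences extended along the score on both sides of its threshold. Progenitors were set in 4 steps: 2720 with no milk UMI, 1224 with milk UMIs below the threshold, and the lower and upper 219 members. These steps are a description, without a test. Csn1s1, summed over libraries, stood at 210, 600, 1584 and 5174 CPM from the first step to the last. Elf5 stood at 104, 211, 331 and 414 CPM, and Cck at 44.1, 142, 374 and 753 CPM. Each of these was also higher in the second step than in the first in every library. Elf5 in corn oil replicate 2 was the exception among members, at 155 CPM below the threshold and 118 CPM in the lower members. Ero1l stood at 746, 415, 195 and 116 CPM and F3 at 635, 333, 147 and 129 CPM. Krt18 stood at 12609 and 11943 CPM in the steps below the threshold and at 8003 and 6615 CPM in the members.

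**Figure D5:**
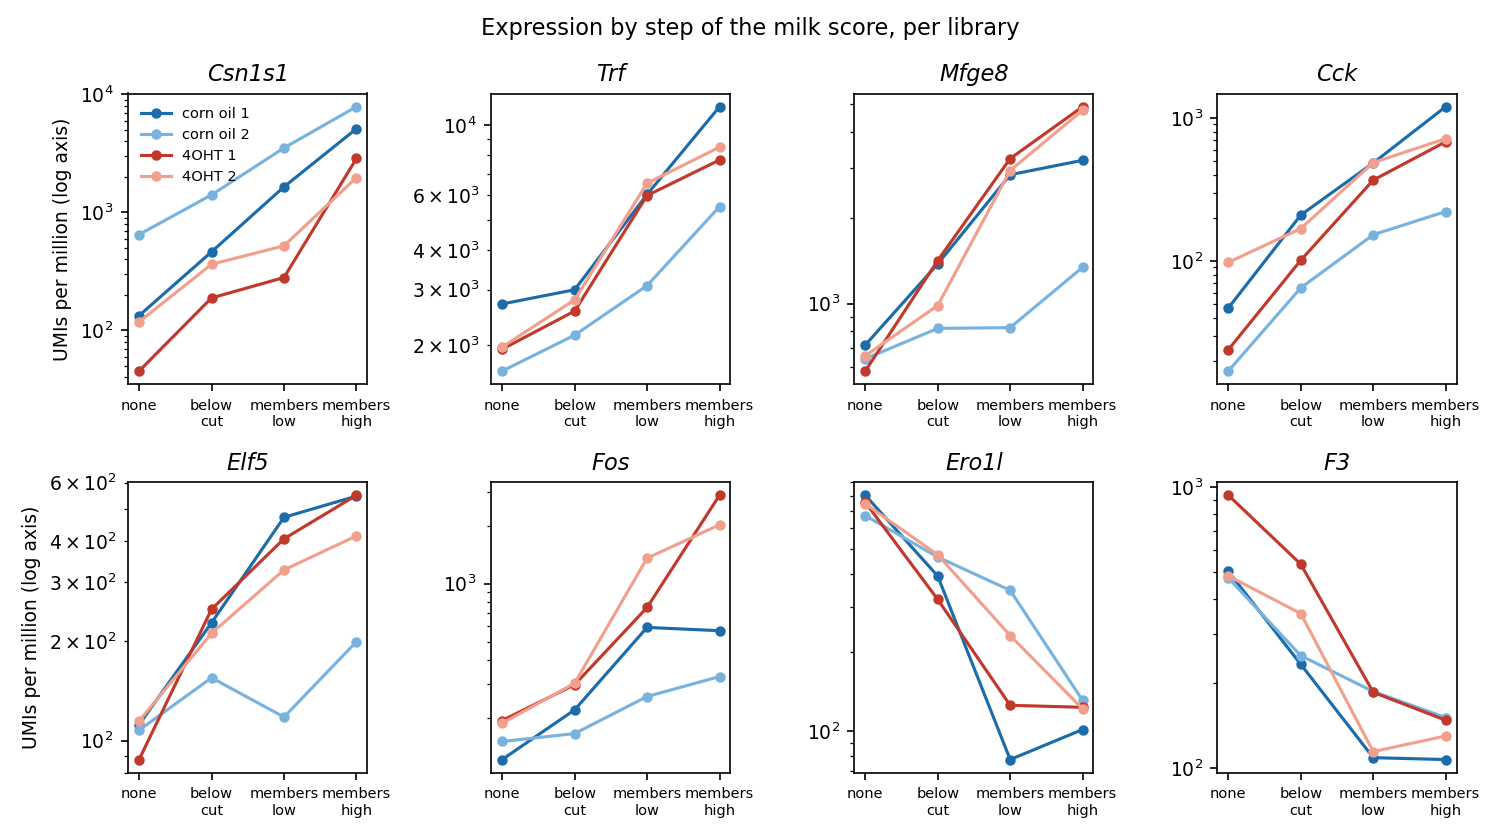
Expression of 8 genes outside the rule in 4 steps of the milk score, in CPM on a log axis with 1 line per library: progenitors with no milk UMI, those with milk UMIs below the threshold, and the lower and upper members. Csn1s1 rises and F3 falls from the first step to the third in every library, and Elf5 in corn oil replicate 2 stays between 108 and 199.

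Members led by different genes differed beyond the score. This split was made after the values were seen, so it is described by levels only. The sets were drawn unequally from the libraries, so values are given per library, in the order corn oil replicates 1 and 2 and 4OHT replicates 1 and 2. Members led by Csn2 or Csn1s2a (63, 105, 17 and 29 cells) had 5634, 6529, 3984 and 3337 CPM of Csn1s1. Those led by Lalba (20, 10, 24 and 63 cells) had 1782, 3795, 195 and 357 CPM. Those led by Btn1a1 (30, 0, 21 and 10 cells) had 1311, 57.9 and 0 CPM in the 3 libraries that held them. Within each library Csn1s1 was thus highest in the casein-led members. Spp1 had no such order, at 13201, 10608, 5465 and 9291 CPM in the casein-led members and 5914, 13387, 9709 and 4696 CPM in the Lalba-led ones. The members led by S100g held 2 UMIs of Csn1s1 in all and had at most 838 CPM of Spp1 in a library, the lowest of the sets in each. Their Ltf, lactoferrin, stood at 11459, 7111, 9556 and 12914 CPM, above the other sets of the same library, although in 4OHT replicate 2 the Btn1a1-led members were close (12513 CPM). Their Wfdc18 stood at 14129 to 18846 CPM and was the highest of the sets in all libraries except 4OHT replicate 2, where the Btn1a1-led members had 14891 CPM. Crip1, a gene of a LIM domain protein, stood at 3560, 2487, 9520 and 11764 CPM in the S100g-led members against at most 1337, 282, 1230 and 3527 CPM in the other sets. It was higher in them in every library. S100g led 12, 5, 6 and 10 members of the 4 libraries, so this set was present in each. When S100g was left out of the score, 406 of the 438 chosen cells were the same and 780 genes passed.

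The 4OHT-labelled libraries were compared with the corn oil libraries within the members. None of 4376 genes passed in edgeR at an adjusted p under 0.05 (0%), with 72 at an unadjusted p under 0.05 and 2 called by DESeq2. Leaving out 1 library gave 71 calls without corn oil replicate 1, 37 without corn oil replicate 2, 0 without 4OHT replicate 1 and 15 without 4OHT replicate 2. The smallest p was that of Ankrd1, with 0 and 0 UMIs in the corn oil members and 19 and 32 in the 4OHT-labelled ones, at least 30.3-fold higher when corn oil is set at 3 counts over the group (edgeR adjusted p = 0.108). In each of these libraries 1 cell held most of the UMIs, 16 and 29 of them. Csn1s1 came next, with a log2 fold change of -2.03 ± 0.42 and an edgeR adjusted p of 0.999. Fabp5, a fatty acid binding protein, stood at 239 and 717 CPM in corn oil and at 130 and 75.8 CPM in the 4OHT-labelled members (-2.18 ± 0.51, edgeR adjusted p = 0.999). Fos in the members had a log2 fold change of 1.77 ± 0.50 (unadjusted p = 0.00578 and adjusted p = 0.999 in edgeR). Its groups did not overlap, as for 1057 of the 4376 genes. The 12 interferon-stimulated genes tested all had log2 fold changes under 0 (median -1.06), yet their groups overlapped: Rsad2 stood at 0 and 395 CPM in the corn oil members and at 144 and 19.9 CPM in the 4OHT-labelled ones, so that corn oil replicate 2 was highest and 4OHT replicate 1 next. Over the lists, the medians ran from -1.06 to 0.57, against -0.03 for all genes.

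All luminal progenitors were also summed, since this comparison does not depend on the milk score. None of 9873 genes passed in edgeR at an adjusted p under 0.05 (0%), with 169 at an unadjusted p under 0.05 and 1 called by DESeq2. Leaving out 1 library gave 49, 31, 63 and 31 calls, in the order corn oil replicates 1 and 2 and 4OHT replicates 1 and 2. Csn2 stood at 454 and 641 CPM in corn oil and at 34.6 and 152 CPM in the 4OHT-labelled libraries (log2 fold change -2.38 ± 0.61, unadjusted p = 0.00373 and adjusted p = 0.9996 in edgeR). Csn1s1 stood at 743 and 1617 CPM against 145 and 310 CPM (-2.22 ± 0.49, unadjusted p = 0.00141 and adjusted p = 0.9996 in edgeR). Csn1s2a stood at 798.5 and 271 CPM against 35.1 and 233 CPM. The groups did not overlap for these 3 caseins, as for 2417 of the 9873 genes, 649 higher and 1768 lower. They overlapped for Lalba (111 and 96.1 against 87.8 and 232 CPM), Btn1a1 (165 and 22.8 against 85.9 and 88.5 CPM), S100g, Csn3 and Tfap2c. The 3 genes with the smallest p were Cdo1, Wdcp and Cxcl1, with log2 fold changes of 2.34 ± 0.44, -2.07 ± 0.41 and 1.25 ± 0.26 and edgeR adjusted p of 0.9996 each. The share of members was lower in each 4OHT-labelled library than in either corn oil library, and lowest in 4OHT replicate 1. The same held for the summed Csn2 level of the members. Csn2 is part of the score that chose the members, so these 2 values are not separate results.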

How the data were processed

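The authors deposited raw UMI counts per gene and cell, made with Cell Ranger 3.0.1 on mm10, per the submitters' processing notes, and the design text in the labels names the annotation GRCm38.91 and 3′ libraries. Strand and intron settings are not given in the sources used here. The members and the gene lists were chosen with earlier results of these data known. Counts were summed per library and class and scaled to CPM, counts per 1e6 counts of the class. Tests used edgeR 4.0.16 in R 4.3.3 on these sums (TMM factors, filterByExpr, quasi-likelihood test, Benjamini-Hochberg adjustment, threshold 0.05). Members and other progenitors were compared with library as a block, and the 4OHT and corn oil groups without a replicate block. Genes used by the rule stayed in the fits, but for members against other progenitors they are described only and no test of them is given. The share of members was compared with an exact permutation test. Replicates are the 2 libraries per group, never the cells. Doublets were scored with Scrublet in scanpy 1.11.5.

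The text names, among genes outside the rule that passed, reached 20 CPM in the higher class and moved the same way in all 4 libraries, the 15 with the highest and the 10 with the lowest fold. One gene that met this rule is not reported here. It also names up to 4 genes per list with the smallest p, the defining members of each list, and for the treatment the 3 genes with the smallest p. Alternatives were DESeq2 1.42.0, RLE factors, no filter, each library left out, other thresholds of the score, thinned cells, separate UMIs for choice and test, and the removal of high doublet scores together with cells under 500 genes or over 10% mitochondrial counts. On simulated counts, 200 genes were changed by a log2 of 2. For members against other progenitors the test recovered 88.0% of them among 7959 genes (7 false calls). For the treatment within members it recovered 42.5% among 3989 genes (2 false calls). The simulated counts used pooled gene means and a spread set by the trend over expression level. They held no effect particular to a library and no excess spread of single genes, so rates in the real libraries may differ. Cells per library ranged from 3546 to 5545, and the depth of the summed members from 353177 to 836203 UMIs, which limits the treatment comparison to abundant genes. Gene positions are from GENCODE M21 and promoters from RefSeq, both on GRCm38.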

Additional observations from a re-analysis of the deposited data

Results flagged for a closer look

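Cited1, a marker of hormone-sensing luminal cells, was lower in the members than in the other progenitors of both corn oil libraries and higher in both 4OHT-labelled libraries. The members held 2, 0, 1 and 17 UMIs of it, in the order corn oil replicates 1 and 2 and 4OHT replicates 1 and 2, which is 2.39, 0, 2.83 and 33.9 CPM against 4.50, 6.02, 1.01 and 17.0 CPM in the other progenitors. The difference between the groups was 2.70 on the log2(CPM + 1) scale and was not tested.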

How the results depend on the processing

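With 2 libraries per group, the share of members cannot reach a p under 0.333 in an exact permutation test, and rare genes were not testable in the members. For members against other progenitors the 928 calls of 8194 genes became 550 of 6413 genes with choice and test on separate UMIs. That alternative tested only the UMIs not used for the choice, so its depth was lower. The calls became 192 without the library block and 276 to 1395 with 1 library left out (276 without 4OHT replicate 2, 337 without 4OHT replicate 1, 514 without corn oil replicate 1 and 1395 without corn oil replicate 2). Without the filter 449 genes were called higher and 836 lower. The remaining alternatives gave 671 to 1188 calls. Over 79 named genes and 16 alternatives, 1129 values kept direction and call, 83 lost the call, 27 gained it and 12 changed sign. The sign changes were in genes that did not pass the main test. With 1 library left out the log2 fold change ran from -0.69 to 0.14 for Rtp4, from -1.13 to 0.17 for Oasl2, from -2.21 to 0.033 for Usp18, from -0.68 to 0.14 for Esr1 and from -0.57 to 0.56 for Ly6a, each highest without corn oil replicate 1. With the top 20% as members Stmn1 was 0.29, Esr1 0.0099, Cited1 -0.19 and Pecam1 0.24. Esr1 was 0.0096 with members chosen after thinning, and Cited1 was -0.23 in DESeq2 and -0.0088 without the filter.

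For the treatment within members the 0 calls became 2 in DESeq2, 12 without the filter and 0 to 71 with 1 library left out (0 without 4OHT replicate 1, 15 without 4OHT replicate 2, 37 without corn oil replicate 2 and 71 without corn oil replicate 1). In all luminal progenitors the 0 calls became 1 in DESeq2, 34 without the filter and 31 to 63 with 1 library left out, any of the 4. With the replicate number as a replicate block there were 4 calls in the members and 1 in all progenitors. Deviations of same-numbered libraries correlated at -0.036 in the members and 0.28 in all progenitors, and with 2 pairs the numbers were not taken to pair the samples. The share of members differed by -6.99 to -2.54 points with 1 library left out (lowest without 4OHT replicate 2, highest without 4OHT replicate 1) and by -4.77 points with the replicate block. With 1 library left out the treatment difference on the log2 scale ran from -0.61 to 3.71 for Btn1a1 and from -0.26 to 0.64 for Tfap2c in the members. In all progenitors it ran from -0.82 to 2.08 for Btn1a1, from -0.21 to 1.36 for Lalba, from -0.55 to 1.11 for S100g and from -0.22 to 0.36 for Tfap2c. Tfap2c in the members was -0.22 with the top 5% and -0.026 with the top 10% of each library. Btn1a1 in all progenitors was 0.0034 with RLE factors, 0.0078 in DESeq2 and 0.55 with the replicate block. The cause of these changes was not tested.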

Other observations

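A further 63 cells with at least 1000 UMIs reached the milk score of the lowest member without meeting the progenitor rule. Of these, 44 held fewer than 5 UMIs of the luminal keratins, 3 were basal by the rule and 16 failed it otherwise. Their median was 12 milk UMIs, 70 UMIs of Wfdc18, Csn3 and Ltf and 3 UMIs of the luminal keratins. Corn oil replicate 2 held 27 of them, corn oil replicate 1 held 7, 4OHT replicate 1 held 15 and 4OHT replicate 2 held 14. High doublet scores were found in 7. The keratin minimum therefore leaves out some cells rich in milk and progenitor transcripts, and the members of corn oil replicate 2 would be the most affected in number.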
